A study of Mus musculus with 2 samples.

Results

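The mitochondrial carriers and uncoupling proteins were described in the gastrocnemius, the main calf muscle, of mice with a limb in a plaster cast and of control mice. The members were all genes whose name on the array began with Slc25a, together with Ucp1, Ucp2, Ucp3, Mtch1 and Mtch2. Slc25a20, the carnitine/acylcarnitine carrier, was left out because it belongs to fatty acid oxidation. This gave 46 genes of 25509 with a symbol on the array, measured by 56 probes on 65 spots. For 37 of the 46, at least 1 probe passed the scanner's flag for signal well above background on the 2 arrays alike; 1 more passed on the control array alone, and 8 passed on neither. The values below are for the 37 unless stated, and this filter leaves out dim genes.

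Both groups were male C57BL/6 mice of 9 weeks, wild type per the series' description, and the treated group had spent 11 days with the hindlimb immobilised and so unloaded. The description gives N = 6 for each group with pooling before use, taken here as 6 mice in each pool. A single 1-colour (Cy3) array was run per pool, so each group was n = 1 array, without replicates, p-values or an error between mice. Pooling also means that 1 animal could carry a difference without being seen.

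Carriers of this family sit mostly in the inner mitochondrial membrane. They exchange nucleotides, phosphate, amino acids, carboxylic acids, cofactors and metals between the matrix and the cytosol. In a muscle fibre the ATP/ADP carrier exports the ATP made by oxidative phosphorylation, the phosphate carrier supplies its substrate, and the aspartate/glutamate and oxoglutarate carriers bring in reducing equivalents from glycolysis. Uncoupling proteins are relatives of these carriers. Ucp1 makes heat in brown fat by leaking protons, and Ucp3 is the form of skeletal muscle, best known for its link to fatty acid use.

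A probe reads a transcript through a 60-base sequence. The first 30 bases of 3 probes are shown, because a single probe stands behind Slc25a34 and Slc25a30 and because the dimmer probe of Slc25a3 gave another value than its brighter one.
Slc25a34 probe: cccaagtgagaaaaattactccagatgaac
Slc25a30 probe: ttcacttacagtaagactcgacctttgtga
Slc25a3 dimmer probe: cctcacttaagaaactcctgtgtttaggaa
On the mm9 assembly, as the array lists them, the Slc25a34 probe (NM_001013780) lies on chromosome 4 from 141174747 to 141174806 and the Slc25a30 probe (NM_026232) on chromosome 14 from 76161882 to 76161941. The dimmer Slc25a3 probe (NM_133668) lies on chromosome 10 from 90579341 to 90579400. The other members past 1.5-fold have probes on chromosome 7 from 148615651 to 148615710 (Slc25a22), from 107634291 to 107634350 and from 107630399 to 107630458 (Ucp3), on chromosome 11 from 102266350 to 102267022 (Slc25a39), on chromosome 2 from 32270275 to 32270334 and from 32270490 to 32270549 (Slc25a25) and on chromosome 19 from 43738444 to 43738503 (Slc25a28). Gene models on mm9 were not used here, so exon and untranslated parts are not stated. Between probes of different members, the closest ungapped match was 29 of 60 bases, between Slc25a31 and Slc25a39.

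Signals below are scaled so that each array's 75th percentile is 100, and a log2 ratio is log2(cast/control) of these signals. Its error is the SD between replicate spots of replicated probes of like level. That SD was 0.16 for replicated probes with a scaled signal of 5.74 to 32.7, 0.10 up to 93.9, 0.09 up to 294 and 0.08 above that. Error between mice and between hybridisations is not part of it. The flag was passed by 60.6% of probes in the control pool and 56.8% in the cast pool. Of 13 muscle fibre markers, such as the creatine kinase gene Ckm, 13 passed in both pools, with a median log2 ratio of -0.27.

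The members' centre was close to that of all genes. Of 37 members, 26 (70.3%) had a log2 ratio below 0, beside 53.1% of all 15154 measured genes. Their median was -0.11, beside -0.03 for all genes. At least 1.5-fold lower on the cast array were 5 members (13.5%), beside 8.24% of all genes, and at least 1.5-fold higher were 2 (5.41%), beside 7.04%. At least 2-fold lower were 3, beside 2.11% of all genes, and 0 were at least 2-fold higher, beside 2.23%. In either direction 7 of 37 were past 1.5-fold, beside 15.3% of all genes, so the count of calls was close to the background. The log2 ratio was within its spot-level SD of 0 for 12 members. For 6 members it lay within that SD of the 1.5-fold size (0.58 on the log2 scale), of which Slc25a39 was past it and the others, among them Slc25a42, Slc25a29, Slc25a24 and Slc25a26, fell short of it.

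**Figure D1:**
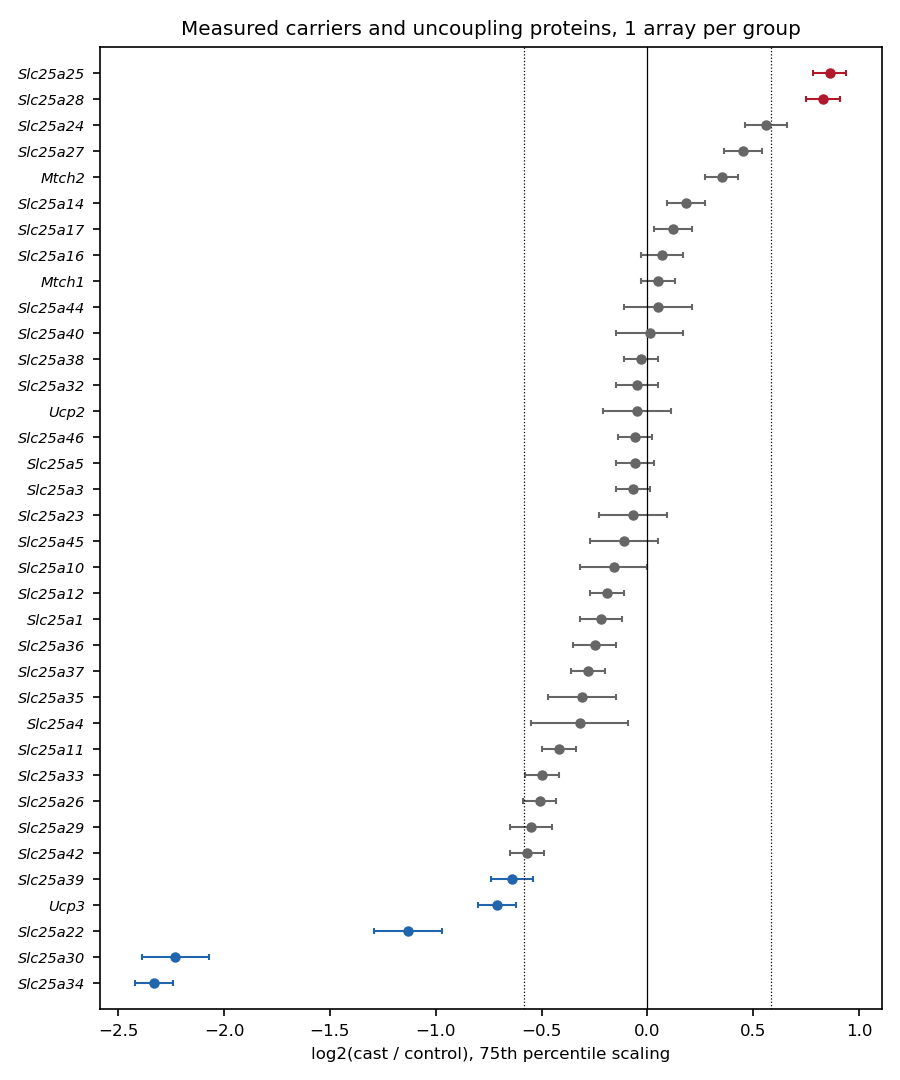
Log2 ratio (x axis) of 36 of the 37 measured members (y axis), 1 array per group, with bars of 1 spot-level SD, dotted lines at 1.5-fold, and blue or red points for members past them. Slc25a34 and Slc25a30 stand far below the others at -2.33 and -2.23, and Slc25a25 and Slc25a28 are highest at 0.86 and 0.83.

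These directions depend on the scaling. With no scaling the median log2 ratio of all genes moved by 0.34, and with scaling on 7 spike-in controls by 0.35. The same amount is then added to every member, so that 11 members instead of 26 were below 0. Calls then became 3 lower and 5 higher among members, and the share of calls that were higher among all genes went from 46.1% to 89.9% and 90.4%. Median scaling gave 59.9%, with 4 members lower and 3 higher. The distance of the members' median from that of all genes was -0.08 under each of these scalings. It could not differ, since each of them moves every gene by the same amount.

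Of the 3 uncoupling proteins, Ucp3 was past 1.5-fold lower, Ucp2 was near 0 and Ucp1 was on neither array. Ucp3 gave 239 in the control pool and 146 in the cast pool with its brighter probe, and 154 and 94.3 with the other. Both probes put it at -0.71 (spot-level SD 0.09 for the brighter), which is 1.63-fold lower for the brighter probe. Ucp2, the widely expressed form that is rich in leukocytes, gave 26.0 and 25.1, a log2 ratio of -0.05 that is smaller than its spot-level SD of 0.16. Ucp2 and Ucp3 are neighbours on chromosome 7 of mm9, with 13458 bases between their nearest probes. Ucp1 did not pass the background flag in either pool (0.965 and 1.19). With no scaling or spike-in scaling Ucp3 was at -0.37 and -0.36, under the 1.5-fold size. Of the 3 relatives, Slc25a30, also known as kidney mitochondrial carrier protein, stood apart, while Slc25a14 (Ucp5) was at 0.18 and Slc25a27 (Ucp4) at 0.45.

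Slc25a30 gave 24.2 in the control pool and 5.17 in the cast pool, so it was 4.69-fold lower, at -2.23 (spot-level SD 0.16). The cast value is close to 4.23, the lowest scaled signal called well above background on that array. With normexp background correction it was at -1.02, still over 2-fold lower. That correction adds an offset of 50, which draws large log2 ratios of dim probes toward 0.

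Slc25a34, a carrier whose substrate is not settled, had the lowest log2 ratio of the members. Its signal was 332 in the control pool and 66.3 in the cast pool, 5.01-fold lower, at -2.33 (spot-level SD 0.09). It was well clear of background on both arrays, and over 11 alternatives of processing it stayed between -2.33 and -1.98. Spots within 10 rows and columns of its own had a median log2 ratio of -0.07. Across the 37 members that median ran from -0.08 to 0.09. A close relative, Slc25a35, was at -0.31, and Slc25a45, another carrier without a settled substrate, at -0.11. Slc25a43 was on neither array.

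**Figure D2:**
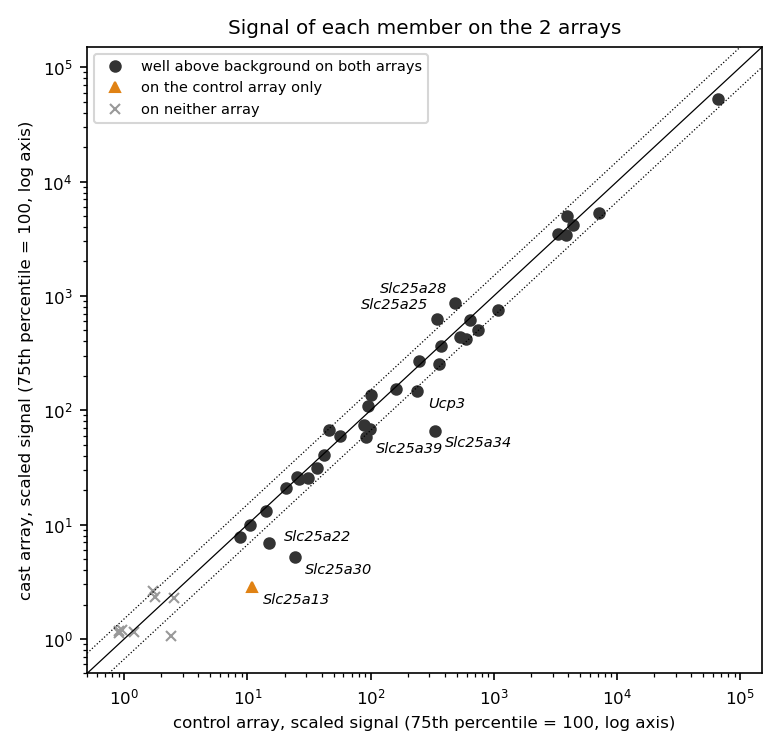
Scaled signal of each of the 46 members on the control array (x axis) and the cast array (y axis), both log axes, with the line of equality and dotted lines at 1.5-fold. Slc25a34 lies far under the line at 332 and 66.3, Slc25a22, Slc25a30 and Slc25a13 lie under it at dim signals, and crosses mark the 8 members on neither array.

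Carriers of ATP, ADP and phosphate, which serve ATP synthase directly, were under 1.5-fold apart in 3 of 3 measured members, apart from the dimmer probe of Slc25a3. Over all genes 15.3% were past that size, so a count over 3 members says little. Slc25a4, the ATP/ADP carrier of heart and muscle, had 10 spots per array. They ran from 55846 over a median of 65985 to 75065 on the control array and from 45334 over 50762 to 64553 on the cast array. The 2 sets of spots overlapped, and the log2 ratio was -0.32 with an SD of 0.23 between its own spots, or 1.25-fold lower. That SD is for a single spot per array, while -0.32 comes from means of 10 spots. The spot-level error of this value is therefore smaller than 0.23. It was -0.02 with quantile scaling and 0.02 with no scaling. Slc25a5, the second ATP/ADP carrier, gave 160 and 153, a log2 ratio of -0.06. The testis form Slc25a31 was on neither array (1.21 and 1.14), and of 5 germ cell markers 1 was measured. For the phosphate carrier Slc25a3, which also carries copper, the brighter probe gave 4409 and 4194, at -0.07, while the dimmer gave 920 and 532, at -0.79. The difference between these probes, 0.72, was the widest of the 9 members with several measured probes, with ranges up to 0.30 for the others. The mean of both Slc25a3 probes was -0.43.

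The ATP-magnesium/phosphate carriers adjust the nucleotide content of the matrix, and most of them bind calcium. Slc25a25 gave 344 in the control pool and 623 in the cast pool, 1.81-fold higher, at 0.86 (spot-level SD 0.08), and its second probe gave 144 and 270, at 0.91. Its 2 probes differed by 0.05. Slc25a24 gave 45.8 and 67.6, at 0.56 (spot-level SD 0.10), just under the 1.5-fold size but past it with median scaling (0.64) and quantile or loess scaling (0.60), while Slc25a23 was at -0.07 from a dim probe (10.4 and 9.84). Slc25a41, the form without the calcium-binding part, was on neither array. Slc25a25 stayed between 0.84 and 1.21 under 11 alternatives, of which the detection filters must repeat its main value.

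Iron enters mitochondria through the mitoferrins, and the pair differed in sign, except without scaling or with spike-in scaling. Mitoferrin 2, Slc25a28, the form of most tissues, gave 484 in the control pool and 860 in the cast pool, 1.78-fold higher, at 0.83 (spot-level SD 0.08). Mitoferrin 1, Slc25a37, the form of red cell precursors, gave 529 and 436, at -0.28, and its dim second probe gave 17.9 and 18.2, at 0.02. The Slc25a28 value ran from 0.80 to 1.18 over 11 alternatives, of which the filters and the mean of probes cannot change its 1 probe. That of Slc25a37 turned positive, up to 0.07, without scaling or with spike-in scaling. Erythroid markers had summed signals of 64894 and 65629, with 5 of 6 measured and a median log2 ratio of 0.11. The part of red cells in these values was not tested. In such bulk RNA, fewer cells of a type and less RNA per cell cannot be told apart.

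Of 5 measured amino acid carriers, 1 (20.0%), Slc25a22, was at least 1.5-fold lower, beside 8.24% of all genes. Its probe was dim, as was that of Slc25a13, which passed the flag on the control array alone. Slc25a22, a glutamate carrier, gave 15.1 and 6.91, 2.18-fold lower, at -1.13 (spot-level SD 0.16), but it was at -0.52 with normexp and so under the 1.5-fold size. Slc25a13 (citrin), an aspartate/glutamate carrier best known from liver, gave 10.9 on the control array and was not well above background on the cast array (2.82). With 4.23, the lowest signal well above background on the cast array, in place of its cast value, Slc25a13 was 2.57-fold lower. That value is not a strict limit, since the leukocyte marker Cd68, at 4.52 on the cast array, did not pass the flag. The log2 ratio of the Slc25a13 probe itself was -1.95, and -1.61 without scaling. Slc25a12 (aralar), the aspartate/glutamate carrier of muscle, gave 3885 and 3399, at -0.19. The basic amino acid carrier Slc25a29 was at -0.55 (99.7 and 68.2), the glycine carrier Slc25a38 at -0.03 and the branched-chain amino acid carrier Slc25a44 at 0.05. The ornithine carriers Slc25a15 and Slc25a2 and the glutamate carrier Slc25a18 were on neither array.

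Cofactor carriers held a run of members just short of 1.5-fold. The coenzyme A carrier Slc25a42 gave 745 and 501 (-0.57), and the S-adenosylmethionine carrier Slc25a26 gave 360 and 252 (-0.51). The second probe of Slc25a26, listed over 94548392 to 94549185 on chromosome 6, a span longer than the probe, gave -0.35. The pyrimidine nucleotide carrier Slc25a33 was at -0.50 with 1 probe and -0.41 with the other, and its relative Slc25a36 at -0.25. In contrast, Slc25a16 (0.07), the peroxisomal carrier Slc25a17 (0.12) and the folate and FAD carrier Slc25a32 (-0.05) lay near 0. The median of the 8 cofactor and nucleotide carriers was -0.37, and 0 of them were past 1.5-fold, beside 15.3% of all genes. With 8 members, a count of 0 says little beside that share. Slc25a42 was past 1.5-fold with quantile and loess scaling (-0.60 in each). Without scaling, Slc25a42 and Slc25a26 moved nearer to 0 by the common 0.34.

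Slc25a39, which brings glutathione into mitochondria, gave 91.3 and 58.7, 1.55-fold lower, at -0.64 (spot-level SD 0.10). Its relative Slc25a40 gave 20.7 and 20.8, at 0.01. The call of Slc25a39 did not hold with median scaling (-0.56), normexp (-0.52), no scaling (-0.30) or spike-in scaling (-0.29).

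Of the carboxylate carriers, which link the citric acid cycle to the cytosol, 3 of 4 were measured. Past 1.5-fold were 0 of these, beside 15.3% of all genes, a share that 3 members are too few to be set against. The oxoglutarate/malate carrier Slc25a11 gave 7131 and 5317, at -0.42 (spot-level SD 0.08). Its value was below 0 in 11 of 11 alternatives, some of which must repeat it because Slc25a11 has 1 probe. Unscaled signals put Slc25a11 at -0.09 and the spike-in scale put it at -0.07, each close to that SD and so near 0. The citrate carrier Slc25a1 was at -0.22 (36.7 and 31.5) and the dicarboxylate carrier Slc25a10 at -0.16 (8.75 and 7.81), and both of these were above 0 without scaling. Slc25a21, the oxodicarboxylate carrier, was on neither array.

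The 3 outer membrane members had a median of 0.05. Mtch2, which inserts proteins into the outer membrane, gave 3920 and 4980, at 0.35 (spot-level SD 0.08), and 27.9 and 39.0 with its dim probe, at 0.48. Mtch1 gave 3334 and 3441, at 0.05, and was at -0.04 with quantile scaling. Slc25a46, which takes part in mitochondrial shape, was at -0.06 with its brighter probe and -0.21 with the other. Mtch2 was above 0 in 11 of 11 alternatives and past 1.5-fold in 2 of them, without scaling (0.68) and with spike-in scaling (0.69). The detection filters among these must repeat its main value.

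**Figure D3:**
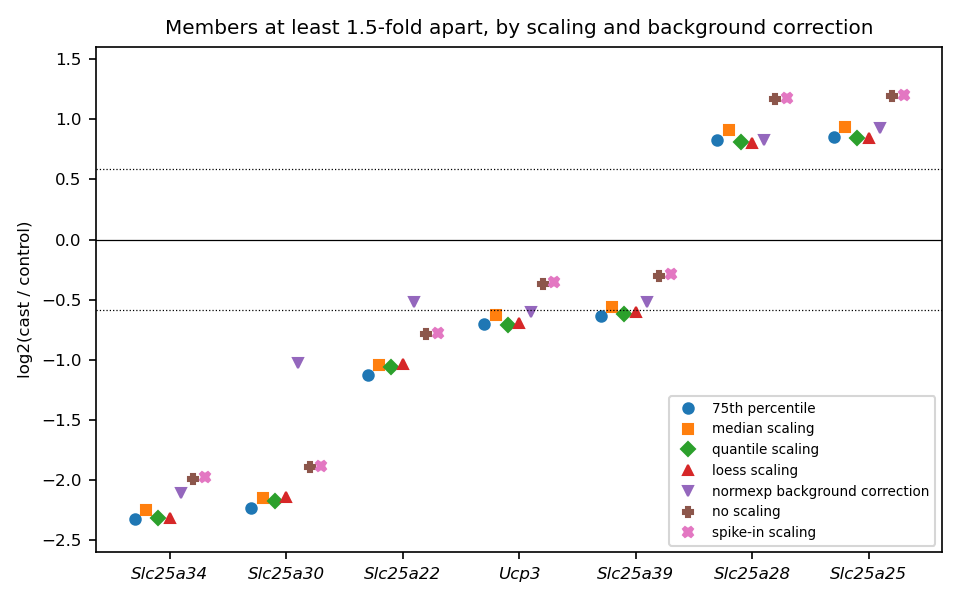
Log2 ratio (y axis) of the 7 members at least 1.5-fold apart (x axis) under the main scaling and 6 other settings, with dotted lines at 1.5-fold. All 7 keep their sign, which median, no and spike-in scaling could not change. Slc25a22, Ucp3 and Slc25a39 come inside the dotted lines under some settings.

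Genes that work beside the carriers are set next to them for scale. Some genes, such as Sdhb and Idh2, stand in more than 1 of these lists. Over all measured genes, 8.24% were at least 1.5-fold lower and 7.04% higher. Of 28 measured genes of other mitochondrial transporters and channels, 4 (14.3%) were at least 1.5-fold lower and 1 (3.57%) higher, with a median of -0.09. Cpt2, the inner membrane carnitine palmitoyltransferase, was at -1.10, Sfxn5 at -0.85, Tmem65 at -0.73, Cpt1a at -0.59, and Tspo, an outer membrane protein that binds cholesterol, at 0.84. The calcium uniporter gene Mcu (0.12) and the pyruvate carrier gene Mpc1 (-0.01) lay near 0, and its partner Mpc2 was at -0.58.

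Enzymes that use or feed the carriers had a median of -0.29, with 5 of 25 at least 1.5-fold lower and 1 higher. Mitochondrial creatine kinase, Ckmt2, which takes up the ATP that Slc25a4 exports, gave 26136 and 7636, at -1.78. Idh2 was at -1.47, the transhydrogenase Nnt at -0.81 and Ppif at -0.69. For the malate-aspartate shuttle, the enzymes Got1 (-0.33), Got2 (-0.38), Mdh2 (-0.26) and Mdh1 (-0.66) stood beside the carriers Slc25a11 (-0.42) and Slc25a12 (-0.19).

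Respiratory chain and ATP synthase genes had a median of -0.31, with 72 of 77 (93.5%) below 0, beside 53.1% of all genes. At least 1.5-fold lower were 7 (9.09%), close to the 8.24% of all genes, and 0 were higher, beside 7.04%. Cox7a1, a subunit of cytochrome oxidase in muscle and heart, was at -1.12, Ndufs1 of complex I at -0.84, Ndufc1 at -0.71, Ndufs8 at -0.67 and Uqcrc2 of complex III at -0.63. Citric acid cycle genes had a median of -0.42, with 18 of 18 below 0 and 4 (22.2%) at least 1.5-fold lower. Beside Idh2 these were Suclg1 (-0.74), Dlst (-0.62) and Sdhb (-0.61), and Idh3g was at -0.58. Unscaled signals and the spike-in scale move every gene of these lists up by 0.34 and 0.35. That is more than the respiratory chain median lies below 0, so the counts below 0 depend on the scaling. Of 26 measured genes listed as uncoupling protein regulators or fatty acid responsive, 16 (61.5%) were at least 1.5-fold lower and 0 higher, with a median of -0.85. Among them Fabp3 was at -2.13, Plin5 at -1.76, Lpl at -1.35, Ppara at -1.33 and Esrrb at -1.20. The quartiles of the carriers were -0.50 and 0.05, beside -0.48 and 0.07 for the other mitochondrial transporters, -0.40 and -0.19 for the respiratory chain and -0.27 and 0.23 for all measured genes.

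**Figure D4:**
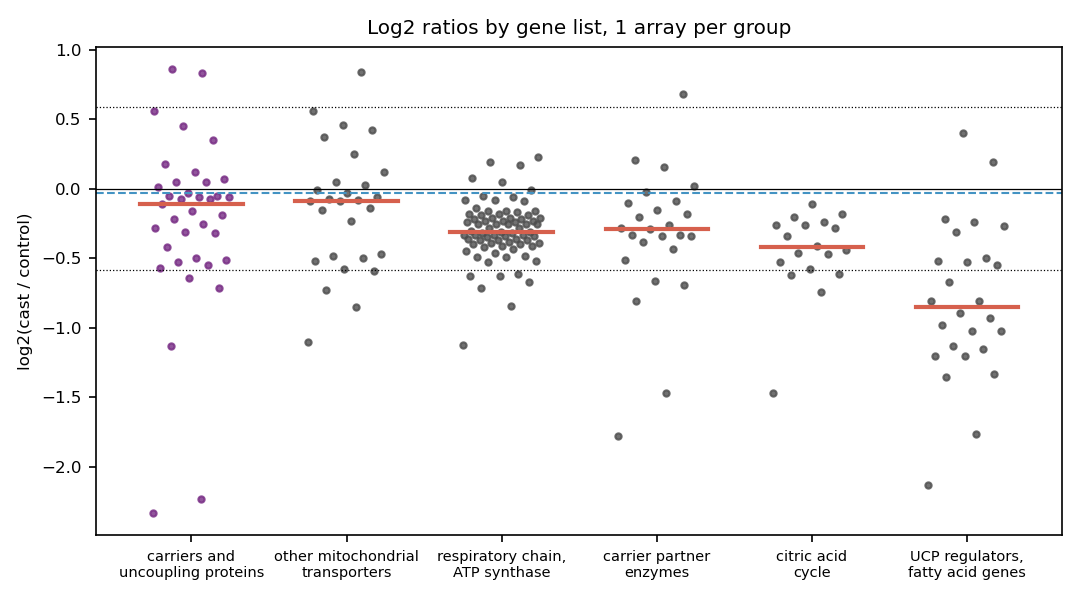
Log2 ratio (y axis) of single genes in 6 lists (x axis), with a red bar at each list's median, a dashed blue line at the median of all genes (-0.03) and dotted lines at 1.5-fold. The carriers have a median of -0.11, and the fatty acid genes lie lowest with a median of -0.85.

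Markers of other cells in the tissue stood as follows beside the members those cells are known for. Of 10 adipocyte markers 7 were measured, with 2 above 0 and 5 below, a median of -0.15 and summed signals of 9816 and 8808, and Lep and Elovl3 were, like Ucp1, on neither array. Of 11 leukocyte markers 9 were measured, with 7 above 0, a median of 0.29 and summed signals of 2218 and 1906, Itgam being at -0.53. Cd68 was on neither array and Fcgr1 on the cast array alone. Ptprc, which marks all leukocytes, gave 7.88 and 11.1. The part of leukocytes in the Ucp2 value, or of adipocytes in any other, was not tested.

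Promoter sequence was available for 36 of the 46 members, from RefSeq on GRCm38.p6, in 46 windows of 250 bases before to 50 after a start. Each window was searched on both strands for CAGCTG (an E-box bound by myogenic factors), TGACGTCA (the cyclic AMP response element, CRE), GTAAACA (forkhead factors), TNAAGGTCA (estrogen-related receptors) and 2 copies of AGGTCA with 1 base between them (the DR1 element bound by PPAR with its partner). The E-box was in 6 member windows (13.0%), beside 16.3% of all 32851 windows, and the CRE in 2 (4.35%), beside 1.79%. The other motifs were in 0 member windows, beside 3.65%, 1.28% and 0.0396% of all windows. The E-box letters were in windows of Slc25a34, Ucp3, Slc25a11, Slc25a24, Mtch1 and Ucp2, whose log2 ratios ran from -2.33 to 0.56. The CRE letters were at Slc25a25 (0.86) and Slc25a36 (-0.25).

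The upstream sequence is shown for the members at least 1.5-fold apart whose windows hold an E-box (Slc25a34 and Ucp3) or a CRE (Slc25a25), with those letters in capitals. That of Slc25a34 is chr4:141623892-141624084 on the minus strand, cut where the outermost transcript starts, and its E-box begins 72 bases before the start of the window's transcript. That of Ucp3 is chr7:100472741-100472990 on the plus strand, with the E-box 40 bases before the start. That of Slc25a25 is chr2:32424067-32424316 on the minus strand, the innermost of its 3 windows, with the CRE 150 bases before that start.
Slc25a34 upstream: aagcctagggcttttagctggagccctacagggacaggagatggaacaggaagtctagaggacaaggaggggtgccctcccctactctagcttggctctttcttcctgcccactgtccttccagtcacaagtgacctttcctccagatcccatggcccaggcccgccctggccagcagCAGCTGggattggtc
Ucp3 upstream: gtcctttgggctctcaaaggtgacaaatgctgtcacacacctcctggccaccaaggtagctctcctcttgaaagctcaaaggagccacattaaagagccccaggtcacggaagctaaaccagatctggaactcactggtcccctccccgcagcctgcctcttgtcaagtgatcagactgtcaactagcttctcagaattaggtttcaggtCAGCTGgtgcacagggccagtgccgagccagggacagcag
Slc25a25 upstream: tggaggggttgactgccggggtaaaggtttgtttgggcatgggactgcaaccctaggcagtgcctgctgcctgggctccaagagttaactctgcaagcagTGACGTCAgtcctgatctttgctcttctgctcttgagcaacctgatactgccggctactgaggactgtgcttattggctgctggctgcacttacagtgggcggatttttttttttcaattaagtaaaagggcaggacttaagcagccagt
These matches describe letters and not bound sites. No binding was measured in these samples.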

How the data were processed

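RNA of control and cast gastrocnemius, pooled by the authors within each group, was read on 1-colour Agilent arrays with 1 array per group. The submitters' processing notes name Agilent Feature Extraction 9.5 for the deposited spot intensity, which the authors left background-subtracted and detrended within each array but not normalized between the 2, per the file headers. The deposited value table was the same intensity divided by the array's 75th percentile and multiplied by 100, found by comparison to within 0.5. Its medians were 9.00 and 8.70, and it served as an alternative.

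Here log2 signals of a probe's spots were averaged without control and non-uniform spots (2 and 9), and each array's 75th percentile (385 and 486) was subtracted. A gene was measured when a probe was well above background on both arrays (flag on over 0.5 of its spots), with the brightest probe taken. No member spot was saturated. Names came from RefSeq accessions (55 of 56 member probes matched), or else from the array. Python 3.11.15, statsmodels 0.14.6 and limma 3.58.1 (normexp, offset 50) were used, and the pipeline was tested on simulated data. With 1 array per group no test was run, and precision is limited by that number. Alternatives were 5 scalings, normexp, 3 detection filters, the mean of probes and the deposited table. Members described in full were those at least 1.5-fold apart, on 1 array only, or of chosen roles fixed by name, with up to 5 genes of each other list. Mcu, Mpc1, Mpc2, the shuttle enzymes and Ptprc were named in addition, after their values were seen. The members, lists and roles were chosen with earlier results of these data known. A few single genes and 1 probe sequence are not reported here, although the counts and medians include them.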

Additional observations from a re-analysis of the deposited data

Results flagged for a closer look

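A probe outside the members, listed as ENSMUST00000000102 and described on the array as glutamate carrier 2 (Slc25a18), passed the background flag in the cast pool (scaled signal 5.80) and not in the control pool (0.688). It was singled out after its values were seen, because it holds signal that the comparison of members does not use. With 3.40, the lowest signal well above background on the control array, in place of its control value, the cast signal was 1.71-fold higher. That value is not a strict limit, since Lep, at 3.81 on the control array, did not pass the flag. The cast signal is itself close to 4.23, the lowest such signal on the cast array. Passing on 1 array alone was not rare: 15154 genes passed on both arrays and 16484 on at least 1. The member probe of Slc25a18 was on neither array (1.70 and 2.63). The probes lie on chromosome 6 of mm9, from 120744285 to 120744344 for the former and from 120743828 to 120743887 for the latter.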

How the results depend on the processing

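All 7 members at least 1.5-fold apart kept their sign under every alternative that gave them a value, and 4 of them (Slc25a34, Slc25a30, Slc25a25 and Slc25a28) stayed past 1.5-fold. For a member with 1 probe, the detection filters and the mean of probes can drop the value but not change it. Median, no and spike-in scaling add at most 0.35 to every log2 ratio. That is less than 0.58, so they could not turn a sign here, nor lose a higher member. The count of lower members, 5, became 3 when arrays were left unscaled, 3 when scaled on spike-in controls, 3 with normexp and 2 among the brighter genes, which leave out dim members by construction. The count of higher members, 2, became 5 unscaled and 5 on the spike-in scale. The members' median, -0.11, turned to 0.23 unscaled and 0.24 on the spike-in scale, by the shift common to all genes. Otherwise it lay between -0.14 and -0.03, and without Slc25a34 it was -0.09. Over all genes, 1067 were at least 1.5-fold higher, against 3591 unscaled and 3705 on the spike-in scale, and 1249 lower, against 405 and 392. With normexp, 682 were lower, and with no filter on dim probes 1980 were higher and 2734 lower. No paired analysis was possible because each group has 1 array. Signal over background limits Slc25a30, Slc25a22 and Slc25a13, whose probes are dim.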

Other observations

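Other genes of the carrier family stood on the array under older names and so fell outside the members. Slc25a51, which imports NAD and is listed as Mcart1, had log2 ratios of -0.14 (612 and 556) and 0.16 (291 and 325) with its 2 probes. Slc25a47, listed as AI132487, gave 71.9 and 51.8, at -0.47. Slc25a48, Slc25a53 and Slc25a54 were not well above background on either array. The carnitine/acylcarnitine carrier Slc25a20, left out by the choice of members, gave 254 and 189, at -0.43. A further probe described as Mtch2 gave 6.01 and 6.41, at 0.09, where the 2 probes named Mtch2 gave 0.35 and 0.48.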
